A study of Mus musculus with 3 samples.

Results

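S1pr1, S1pr4, S1pr5, Klf2 and Cd69, receptors and regulators that set where lymphocytes travel, were followed through the blood of young mice, aged mice and aged mice given glycyrrhizic acid (GA), a compound of licorice root. They were chosen by name, as 5 of the 32285 gene rows in each count matrix, and each symbol matched 1 row. The study measured peripheral blood mononuclear cells (PBMCs), the white cells left once most granulocytes and red cells are removed, by droplet-based single-cell RNA sequencing. It asked how GA acts on the aging immune system. The young group was 8 weeks old and untreated, the aged group 16 months old and untreated, and the aged-GA group 16 months old with GA for 1 month. All were C57BL/6 females, and the methods name the tail vein, every other day, as the route of GA and of saline for controls, although the labels give the young and aged groups as untreated. Young mice were bought and aged ones were reared in the laboratory, so age and source cannot be told apart. Each group was 1 library from several mice, and how their blood was combined is not given in the sources used here. A difference between groups therefore cannot be told apart from a difference between libraries, no test was run, and all intervals cover counting error only. Fewer cells of a type and less RNA per cell cannot be told apart in sums over all cells, so levels were read within gates of cells.

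Lymphocytes leave the thymus and lymph nodes by following sphingosine 1-phosphate (S1P), a lipid that is abundant in blood and lymph and scarce inside tissues. S1pr1 encodes the S1P receptor that T and B cells use for this exit. S1pr5 encodes the receptor used by NK cells and by nonclassical monocytes, the monocytes that patrol vessel walls, and S1pr4 encodes a receptor found on many leukocytes. Klf2 is a zinc finger transcription factor that switches on S1pr1 in resting T cells. Cd69 is an early activation marker whose protein binds the S1P1 receptor and pulls it from the cell surface, so that a freshly activated lymphocyte stays in the tissue. These counts are of RNA, and neither surface receptor nor S1P itself was measured.

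All 5 genes lie apart in the genome (GRCm38, GENCODE vM21). S1pr1 (ENSMUSG00000045092) is at chr3:115710433-115715072 on the minus strand, S1pr4 (ENSMUSG00000044199) at chr10:81497747-81500132 on the minus strand, and S1pr5 (ENSMUSG00000045087) at chr9:21242912-21248443 on the minus strand. In each of these receptor genes the whole coding sequence sits in 1 exon, of 382, 386 and 400 codons. Klf2 (ENSMUSG00000055148) is at chr8:72319033-72321656 on the plus strand with 3 coding exons, and Cd69 (ENSMUSG00000030156) at chr6:129267325-129275436 on the minus strand with 5. S1pr5 overlaps Gm48303, a gene annotated on the opposite strand, and no other annotated gene overlaps a member.

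RefSeq promoters were at hand for 3 of the 5 members. The promoters of Klf2 and S1pr5 are shown because Klf2 differed in the same direction in every gate between the treated and untreated aged libraries, and S1pr5 had the narrowest range of cell types. Each runs 5′ to 3′ on the strand of the gene and ends just before its start, in GRCm38.p6 coordinates. Capitals mark matches, on either strand, to the letters CACCC, a box bound by KLF factors, CACCTG, the box of ZEB factors, GGTGTGA, a core of the T-box site, or the MEF2 consensus.
Klf2, chr8:72318812-72319032, plus strand: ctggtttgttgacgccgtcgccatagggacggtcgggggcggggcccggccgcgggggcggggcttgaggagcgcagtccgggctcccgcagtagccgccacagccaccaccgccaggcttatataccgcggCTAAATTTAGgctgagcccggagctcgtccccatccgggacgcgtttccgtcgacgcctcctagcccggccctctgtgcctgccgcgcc
S1pr5, chr9:21248444-21248693, minus strand: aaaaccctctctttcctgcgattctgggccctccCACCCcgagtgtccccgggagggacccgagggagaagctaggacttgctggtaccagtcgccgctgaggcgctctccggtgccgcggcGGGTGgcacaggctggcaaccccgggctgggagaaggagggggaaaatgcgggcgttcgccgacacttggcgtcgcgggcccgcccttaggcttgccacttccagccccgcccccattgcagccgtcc
The Klf2 window holds the MEF2 consensus once, as CTAAATTTAG, 79 bases before its end, and the consensus occurs in 139 of 32851 promoter windows of that length. It holds neither CACCC nor its reverse. The S1pr5 window holds CACCC or its reverse GGGTG at 2 places, as do many promoters, since 52.0% of windows of that length hold at least 1. CACCTG and GGTGTGA are in neither window, and they are found in 17.2% and 3.33% of windows of 250 bases. The window of S1pr4, chr10:81500138-81500387, holds 1 CACCTG and 1 GGGTG. A match of letters is a description and not evidence of binding.

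The young library held 58894294 UMIs, the aged one 82260961 and the aged-GA one 98155671. A UMI (unique molecular identifier) counts 1 captured RNA molecule. After filtering, 8851, 10238 and 12648 cells were kept, and 5248, 7321 and 8508 of them fell into 1 of 10 gates set by marker UMIs. Cells that met the T-cell markers numbered 5196, 1906 and 3162 in young, aged and aged-GA, and many of them fell into no T-cell gate. Results in the T-cell gates thus leave out many T cells of each library. Levels are given as CPM, the UMIs of a gene per 1000000 UMIs of the same cells. The gates were of unequal size. Naive CD4 T cells numbered 918, 218 and 315 in young, aged and aged-GA, memory CD4 T cells 42, 210 and 314, naive CD8 T cells 1410, 225 and 520, memory CD8 T cells 200, 430 and 876, B cells 2279, 4133 and 5454 and NK cells 319, 244 and 240. Nonclassical monocytes numbered 45, 344 and 144, classical monocytes 2, 637 and 89 and neutrophils 13, 849 and 528, so the young library gives no ratio for the last 2. Foxp3 CD4 T cells, with 20, 31 and 28 cells, gave no ratio at all.

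Genes held back from the gating did not all separate the gates. In the aged library Cd2, held back as a T-cell marker, was at 253 CPM in B cells and 226 in naive CD8 T cells. Tyrobp, held back as an NK marker, was at 2659 CPM in aged NK cells and 3700 in aged classical monocytes. Others were far apart between gates. In the aged library the T-cell adaptor Lat was at 444 CPM in naive CD4 T cells and 8.52 in B cells, and the granule gene Gzma at 14590 in NK cells and 688 in memory CD8 T cells. Gzmk, a granzyme of memory T cells, was at 98.8 CPM in memory and 0.778 in naive CD8 T cells. Ikzf2, held back as a marker of Foxp3 T cells, was at 1053 CPM in aged Foxp3 CD4 T cells. It was at 237 CPM in aged memory and 36.1 in aged naive CD4 T cells. Regulatory T cells without a Foxp3 UMI could fall in the memory CD4 gate, and their part in its levels was not tested. S100a8, an abundant gene of neutrophils, was found at 2.48, 98.5 and 67.0 CPM in the B cells of young, aged and aged-GA, against 95930 in aged neutrophils. Myeloid RNA was thus present in lymphocyte droplets of both aged libraries, and its part in the results was not tested. The members themselves were near 0 in some gates of the same libraries, as given beside each.

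Differences by age were clearest in B cells and NK cells. A member was named as different when its ratio passed 1.5-fold in either direction. Between aged and young B cells 3 of 4 members with a ratio passed. S1pr1 was higher, as were 19.9% of the 8908 genes tested in B cells, while Klf2 and Cd69 were lower, as were 2.53%. In NK cells 3 of 5 passed, S1pr1 higher, where 8.83% of genes were, and S1pr4 and Klf2 lower, where 5.33% were. In memory CD8 T cells 1 of 5 passed, S1pr5, higher along with 25.2% of genes. In nonclassical monocytes 1 of 4 passed, Cd69, lower along with 6.29%. None of 4 members passed in naive CD4, memory CD4 or naive CD8 T cells, where 20.8%, 18.8% and 20.3% of genes did. Genes tested had at least 100 UMIs over both libraries, and S1pr1 in NK cells, S1pr5 in memory CD8 T cells and Cd69 in nonclassical monocytes fell short of that in this comparison.

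With GA, Cd69 was the member past 1.5-fold in most gates, 4 of 9, and higher in each of them. This comparison shares the aged library with the comparison by age. In NK cells 3 of 5 members passed 1.5-fold, Klf2 and S1pr4 higher, where 2.32% of genes were, and S1pr1 lower, where 1.96% were. In memory CD8 T cells 2 of 5 passed, Cd69 higher along with 1.5% of genes and S1pr5 lower along with 2.98%. In neutrophils 2 of 5 passed, Cd69 and S1pr5, both higher along with 5.98%. Cd69 alone passed among the 4 members in naive CD4 T cells, higher along with 2.04%, and among the 5 in nonclassical monocytes, higher along with 2.62%. No member passed in B cells (of 5), memory CD4 T cells (of 4), naive CD8 T cells (of 4) or classical monocytes (of 3), where 1.95%, 4.94%, 4.32% and 9.3% of genes did. Here S1pr1 in NK cells, S1pr5 in neutrophils and Cd69 in nonclassical monocytes had fewer than 100 UMIs.

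The median log2 ratio of all genes, aged over young, was itself above 0, at 0.19 in naive CD4, 0.12 in memory CD4, 0.21 in naive CD8 and 0.29 in memory CD8 T cells and 0.25 in B cells. In NK cells and nonclassical monocytes it was 0.04 and 0.08. With GA it lay between -0.06 and 0.13. Values less that median are given beside the members whose sign or call it decides. Less the median, S1pr1 in aged over young B cells was at 0.54, Klf2 at -1.07 and Cd69 at -1.51, so that the first fell short of 1.5-fold and the others lay further from 0.

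**Figure D1:**
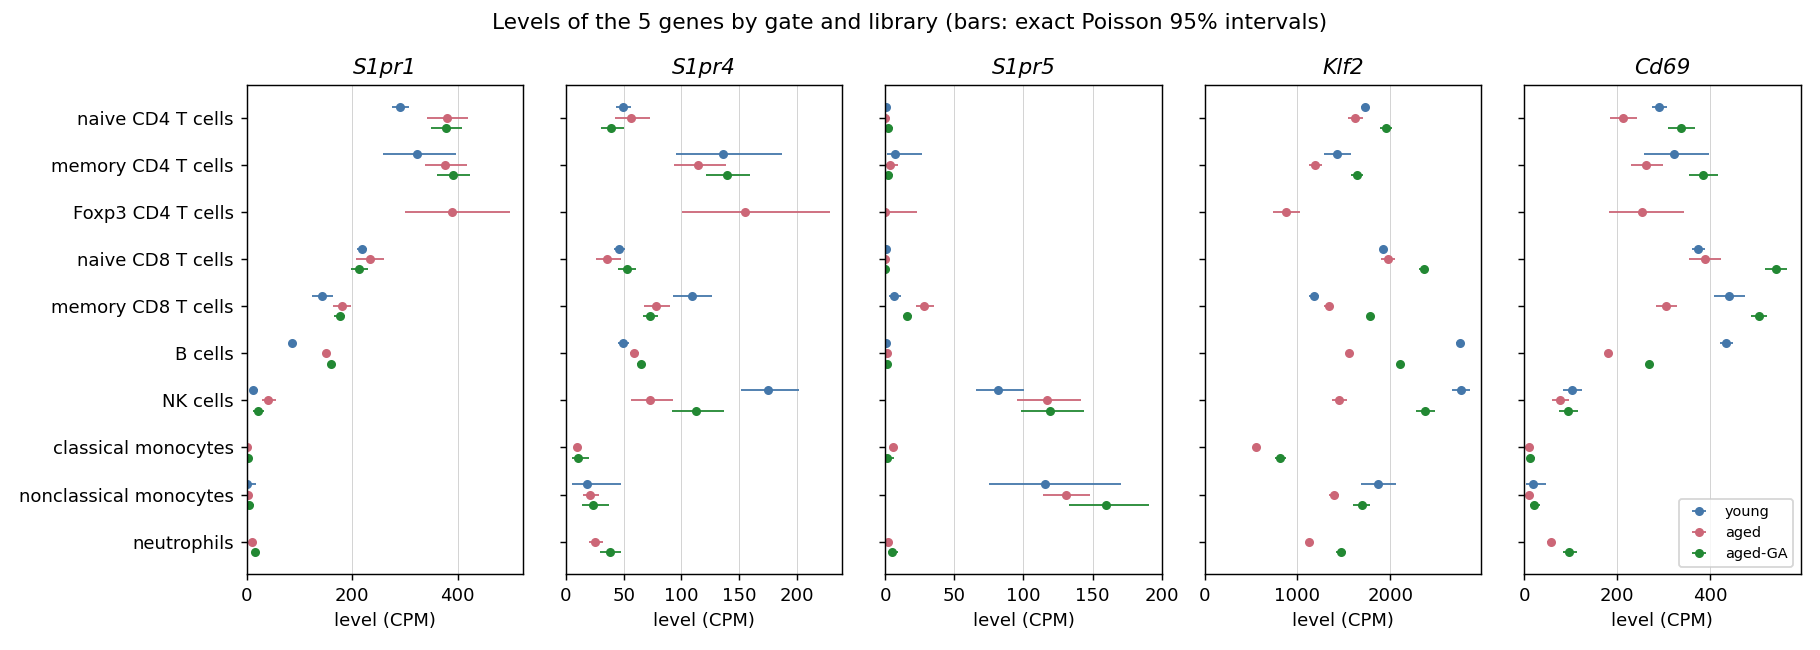
Level of each gene in CPM (horizontal axis, from 0, with its own scale for each gene) in gates of at least 30 cells (vertical axis) of the young, aged and aged-GA libraries. Points are sums over the cells of a gate and bars exact Poisson 95% intervals. S1pr1 is highest in CD4 T cells, S1pr5 in NK cells and nonclassical monocytes, and Klf2 is found in every gate.

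S1pr1, the main exit receptor, was a lymphocyte gene, highest in CD4 T cells. Memory CD4 T cells had 323 CPM in young, 377 in aged and 392 with GA. Naive CD4 T cells had 291 CPM in young, 379.8 in aged and 379 with GA. Memory and naive CD4 cells overlapped in each library, and the log2 ratio of memory over naive was 0.15 in young, -0.01 in aged and 0.05 with GA, with intervals that all hold 0. Naive CD8 T cells were lower, with 218 CPM in young, 233 in aged and 213 with GA. Memory CD8 T cells were lower again, with 143 CPM in young, 180.1 in aged and 176 with GA. The log2 ratio of memory over naive CD8 cells was -0.61 in young, -0.37 in aged and -0.28 with GA, below 0 with its interval in every library. B cells followed, with 86.5 CPM in young, 150.1 in aged and 159 with GA. The log2 ratio of B cells over naive CD4 T cells was -1.74 in young, -1.33 in aged and -1.24 with GA, and the young B cells were the lowest. In myeloid cells the gene was almost absent, with 1.54 CPM in aged classical monocytes, 3.42 in aged nonclassical monocytes and 10.9 in aged neutrophils, while no UMI was found in young nonclassical monocytes, which allows up to 13.9 CPM, the level of 3 UMIs there.

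By age, S1pr1 was higher in the aged library in each of the 6 gates with a ratio, although in naive CD8 T cells this reversed less the median of all genes. B cells of the aged library had a log2 ratio over young of 0.79 (95% interval 0.68 to 0.91), or 1.73-fold. Less the median of all genes it was 0.54, short of 1.5-fold. With each cell thinned to 1000 UMIs, 7.71%, 13.8% and 14.3% of young, aged and aged-GA B cells held an S1pr1 UMI. Both aged libraries thus lay above the young one on either measure. In classical monocytes, where the gene was almost absent, this share was 0.166% in aged and 0.199% in aged-GA. Their median depths were 9778 and 9324 UMIs, against 3087 and 3784 in B cells. The share was not taken as a floor, and the young library had only 2 such cells. Without thinning the shares in B cells were 24.1%, 37.8% and 44.3%, at a young median depth of 3397 UMIs.

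In naive CD4 T cells the ratio by age was 0.38 (0.21 to 0.55) and in memory CD8 T cells 0.33 (0.10 to 0.58). In memory CD4 and naive CD8 T cells it was 0.22 and 0.10, with intervals that hold 0. Relative to the median of all genes these 4 T-cell values came to 0.20, 0.05, 0.10 and -0.11, so the direction in naive CD8 T cells depended on the centring. NK cells, the lymphocytes with the least S1pr1, had 13.01 CPM in young, 40.5 in aged and 20.7 with GA, from 14, 36 and 19 UMIs. The log2 ratio there was 1.57 (0.71 to 2.64) by age and -0.94 (-1.86 to -0.13) with GA, the largest S1pr1 ratios found and the ones resting on fewest UMIs among lymphocytes. Erythroid cells had 3.37, 4.53 and 5.47 CPM in young, aged and aged-GA. The aged value, from 8 UMIs, and the 1.54 CPM of aged classical monocytes, from 10 UMIs, had intervals that overlap (1.96 to 8.93 and 0.74 to 2.84 CPM). Neither was taken as a floor for free RNA. The part of free RNA in the NK values was not tested.

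With GA, S1pr1 in T cells lay close to the aged level. The log2 ratio of aged-GA over aged was 0.00 (-0.19 to 0.18) in naive CD4, 0.06 (-0.14 to 0.25) in memory CD4, -0.13 (-0.32 to 0.07) in naive CD8 and -0.03 (-0.19 to 0.13) in memory CD8 T cells. All 4 intervals hold 0 and end short of 1.5-fold. Less the median of all genes the memory CD8 value was 0.03, so its sign depended on the centring. In B cells the ratio was 0.08 (0.01 to 0.16). The gap between memory CD8 and memory CD4 T cells was also alike, at a log2 ratio of -1.06 (-1.27 to -0.86) in aged and -1.15 (-1.29 to -1.01) in aged-GA mice.

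S1pr4, a receptor of many leukocytes, ran the other way within T cells, higher in memory than in naive cells. Memory CD4 T cells had 136 CPM in young, 115 in aged and 139.7 with GA. Naive CD4 T cells had 49.3 CPM in young, 56.1 in aged and 39.3 with GA. The log2 ratio of memory over naive was 1.45 in young, 1.02 in aged and 1.80 with GA in CD4 and 1.22 in young, 1.11 in aged and 0.46 with GA in CD8 T cells, and all 6 intervals lay above 0. Memory CD8 T cells had 109 CPM in young, 78.4 in aged and 72.9 with GA. Naive CD8 T cells had 46.1 CPM in young, 35.8 in aged and 52.8 with GA. B cells had 49.8 CPM in young, 59.1 in aged and 64.9 with GA, which did not differ from naive CD4 T cells beyond the interval in young and aged mice, while the log2 ratio in aged-GA mice was 0.71 (0.37 to 1.10). Monocytes had the least, and aged-GA neutrophils were close to aged-GA naive CD4 T cells. Neutrophils had 25.6 CPM in aged and 37.9 in aged-GA, nonclassical monocytes 18.5, 21.1 and 23.4, and classical monocytes 9.58 in aged and 10.7 in aged-GA.

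NK cells held the widest spread of S1pr4 between libraries, with 176 CPM in young, 73.2 in aged and 113 with GA, from 189, 65 and 104 UMIs. Young NK cells were the highest of the 3 and aged NK cells the lowest. The log2 ratio was -1.25 (-1.69 to -0.85) by age, or 2.38-fold lower, and 0.62 (0.17 to 1.10) with GA. The last fell short of 1.5-fold under 2 of 10 alternatives, down to 0.57. At 1000 UMIs per cell 15.6%, 7.16% and 10.9% of NK cells held an S1pr4 UMI, in young, aged and aged-GA, against 0.945% of aged classical monocytes. Memory CD8 T cells had a ratio below 0 by age as well, at -0.47 (-0.78 to -0.17), short of 1.5-fold but past it, at -0.75, less the median of all genes. With GA the interval holds 0, at -0.10 (-0.35 to 0.14). In naive CD8 T cells the 2 ratios were -0.36 (-0.84 to 0.08) and 0.55 (0.09 to 1.06), and in naive CD4 T cells 0.18 and -0.50, with intervals that hold 0. In B cells the ratio by age was 0.24 (0.08 to 0.42). Less the median of all genes the ratios by age in B cells and naive CD4 T cells were just below 0.

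S1pr5 was the most selective member. Nonclassical monocytes had 116 CPM in young, 130.5 in aged and 159.8 with GA, from 25, 229 and 123 UMIs. NK cells had 81.8 CPM in young, 117 in aged and 119.6 with GA, from 88, 104 and 110 UMIs. Both cell types were above all others, and the log2 ratio of nonclassical monocytes over NK cells was 0.49 in young, 0.16 in aged and 0.42 with GA, with intervals of -0.20 to 1.15, -0.18 to 0.51 and 0.04 to 0.80. Aged classical monocytes, the close relatives of the nonclassical ones, had 5.25 CPM, a log2 ratio of nonclassical over classical of 4.39 (4.11 to 5.20). In B cells the level was 0.113, 1.04 and 0.849 CPM, and in naive CD8 T cells only 1 UMI was found in all 3 libraries, in young. At 1000 UMIs per cell 7.85%, 11.8% and 11.9% of NK cells, 11.5%, 13.2% and 16.1% of nonclassical monocytes and 0.00594%, 0.0742% and 0.0729% of B cells held an S1pr5 UMI, in young, aged and aged-GA. Unthinned these shares were 20.7%, 32.8% and 32.1% in NK cells and 0.0439%, 0.339% and 0.312% in B cells, at aged median depths of 3190 and 3087 UMIs.

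Neither NK cells nor nonclassical monocytes passed 1.5-fold in S1pr5. The log2 ratio by age was 0.51 (0.09 to 0.94) in NK cells and 0.17 (-0.42 to 0.83) in nonclassical monocytes. With GA it was 0.03 (-0.37 to 0.43) and 0.29 (-0.04 to 0.61). The upper bound exceeds 1.5-fold in 3 of these 4.

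Memory CD8 T cells were the lymphocytes in which S1pr5 did pass. There it stood at 5.94 CPM in young, 28.0 in aged and 15.8 with GA, from 9, 70 and 106 UMIs, and the 3 intervals (2.72 to 11.3, 21.8 to 35.4 and 12.97 to 19.2 CPM) do not overlap. The log2 ratio was 2.06 (1.23 to 3.42) by age and -0.78 (-1.27 to -0.37) with GA. At 1000 UMIs per cell 0.792%, 3.36% and 1.75% of memory CD8 T cells held a UMI, in young, aged and aged-GA. The aged cells were thus the highest and the young ones the lowest. Zeb2, which with T-bet drives late effector T and NK cells and S1pr5, had the same order there, with 20.5 CPM in young, 76.4 in aged and 41.2 with GA and log2 ratios of 1.85 and -0.87. Tbx21, which encodes T-bet, was at 9.90, 25.2 and 18.7 CPM. The NK gene Prf1, held back from the gating, was at 37.0, 93.2 and 82.2 CPM in these T cells and 1236, 904 and 1081 in NK cells. Gzma, likewise held back, was at 434, 688 and 207 CPM in these T cells, highest in aged and lowest in aged-GA, and at 15840, 14590 and 13840 in NK cells. The part of NK cells in this gate was not tested. Across 10 alternatives the S1pr5 ratio by age lay between 1.25 and 2.41 and that with GA between -0.97 and -0.56, the latter short of 1.5-fold, with a pseudocount of 10 CPM.

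**Figure D2:**
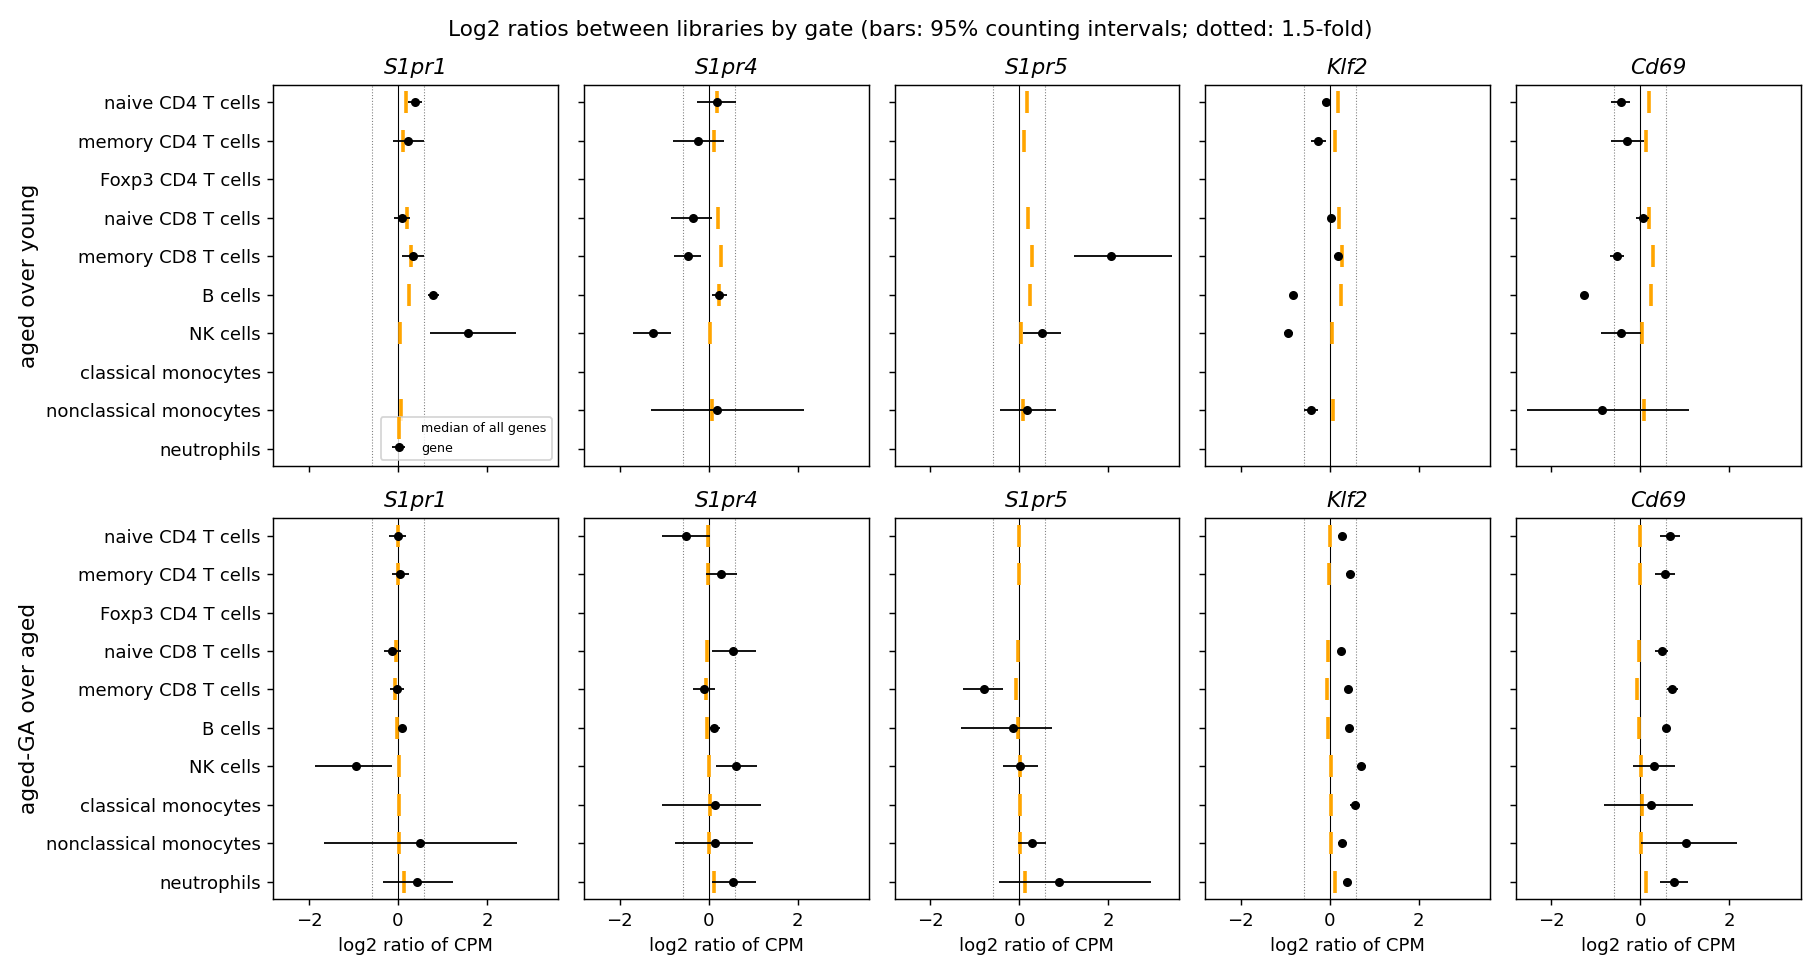
Log2 ratio of CPM (horizontal axis) by gate (vertical axis), aged over young in the upper row and aged-GA over aged in the lower row, for each gene. Points carry 95% counting intervals, orange marks are the median of all genes tested in that gate and dotted lines 1.5-fold, and Klf2 and Cd69 lie right of 0 in all 9 gates of the lower row.

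Klf2, the transcription factor upstream of S1pr1, was found in every gate. Its order changed with the library. In young mice NK cells and B cells led, and in aged mice naive CD8 T cells did. NK cells had 2763 CPM in young, 1452 in aged and 2377 with GA. B cells had 2749 CPM in young, 1552 in aged and 2109 with GA. In both, young cells were the highest and aged cells the lowest. Naive CD8 T cells had 1926 CPM in young, 1977 in aged and 2361 with GA. Naive CD4 T cells had 1727 CPM in young, 1622 in aged and 1957 with GA. In these 2 the aged-GA cells were the highest. Memory cells lay below naive cells of the same lineage in every library, with log2 ratios of -0.28 in young, -0.45 in aged and -0.26 with GA in CD4 and -0.71 in young, -0.57 in aged and -0.41 with GA in CD8 T cells, all with intervals below 0. Among myeloid cells nonclassical monocytes had 1867 CPM in young, 1393 in aged and 1693 with GA, against 548 CPM in aged and 816 in aged-GA classical monocytes. Neutrophils had 1128 CPM in aged and 1470.5 in aged-GA. In erythroid cells Klf2 was at 56.2, 38.5 and 69.7 CPM in young, aged and aged-GA, below every gate. The log2 ratio with GA there was 0.84 (0.49 to 1.24), in the same direction as in the gates.

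By age Klf2 was lower in B cells and NK cells and near level in T cells. The log2 ratio was -0.82 (-0.85 to -0.80) in B cells and -0.93 (-1.02 to -0.83) in NK cells, 1.77-fold and 1.90-fold lower. Nonclassical monocytes were at -0.42 (-0.57 to -0.27) and memory CD4 T cells at -0.26 (-0.43 to -0.09). Naive CD4, naive CD8 and memory CD8 T cells were at -0.09, 0.04 and 0.18. Relative to the median of all genes these 3 came to -0.28, -0.17 and -0.11, so the sign in both CD8 gates depended on the centring.

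With GA, Klf2 was higher than in aged mice in all 9 gates with a ratio, and every interval lay above 0. The log2 ratio was 0.71 (0.61 to 0.81) in NK cells, 0.57 (0.45 to 0.69) in classical monocytes, 0.46 (0.36 to 0.56) in memory CD4 T cells and 0.44 (0.42 to 0.46) in B cells. Memory CD8 T cells followed at 0.42, neutrophils at 0.38, nonclassical monocytes at 0.28, naive CD4 T cells at 0.27 and naive CD8 T cells at 0.26. NK cells alone passed 1.5-fold. The lowest of the 9 values after the median of all genes was subtracted was 0.25, in neutrophils. In B and NK cells the aged-GA level lay between aged and young, whereas in the 4 naive and memory T-cell gates it lay above both, and the Klf2 ratios with GA held their sign in each gate under all 10 alternatives.

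Cd69, the early activation marker that removes S1P1 from the surface, was a gene of T and B cells. Naive CD8 T cells had 375 CPM in young, 389 in aged and 542 with GA, and memory CD8 T cells 441 CPM in young, 306 in aged and 505 with GA. Memory CD4 T cells had 323 CPM in young, 263 in aged and 385 with GA, and naive CD4 T cells 291 CPM in young, 213 in aged and 338 with GA. In all 4 the aged-GA cells were the highest. B cells had 436 CPM in young, 181 in aged and 268 with GA, with the young cells highest. NK cells lay lower, with 103 CPM in young, 76.5 in aged and 94.6 with GA, a log2 ratio over memory CD8 T cells of -2.08 in young, -1.98 in aged and -2.40 with GA. Neutrophils had 57.8 CPM in aged and 97.8 in aged-GA, and classical monocytes 11.0 in aged. In erythroid cells it was at 9.21, 30.6 and 16.3 CPM in young, aged and aged-GA, above the classical monocytes of the aged library. The log2 ratio with GA in erythroid cells was -0.87 (-1.38 to -0.42), opposite to that in the gates.

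In B cells, which had most cells of any gate in each library, Cd69 differed clearly. Its log2 ratio by age was -1.26 (-1.34 to -1.20), or 2.40-fold lower in aged B cells, and with GA 0.57 (0.51 to 0.64), or 1.48-fold higher, which became 0.60 and past 1.5-fold less the median of all genes. At 1000 UMIs per cell 31.7%, 16.2% and 22.1% of young, aged and aged-GA B cells held a Cd69 UMI, against 1.06% and 1.26% of aged and aged-GA classical monocytes. Unthinned the shares of B cells were 65.6%, 41.4% and 56.6%. The aged-GA B cells thus lay between the aged and the young ones on each measure.

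In T cells Cd69 by age was at -0.44 (-0.66 to -0.24) in naive CD4, -0.53 (-0.68 to -0.38) in memory CD8, -0.30 (-0.65 to 0.07) in memory CD4 and 0.05 (-0.09 to 0.19) in naive CD8 cells. Less the median of all genes the first and second came to -0.63 and -0.81, both lower by more than 1.5-fold, and the last to -0.15, so these calls and that sign depended on the centring. With GA all 4 were higher, at 0.66 (0.43 to 0.90), 0.72 (0.61 to 0.84), 0.55 (0.33 to 0.77) and 0.48 (0.34 to 0.62). At 1000 UMIs per cell 31.5%, 24.0% and 36.3% of memory and 27.3%, 30.3% and 38.4% of naive CD8 T cells held a UMI, in young, aged and aged-GA. Among the gates with a ratio, Cd69 was above 0 with GA in 9 of 9, under each of 10 alternatives too, and 7 of the intervals lay above 0. NK cells, at 0.30, and classical monocytes, at 0.23, had intervals that hold 0, and the value of nonclassical monocytes, 1.03, rests on 17 and 16 UMIs. By age nonclassical monocytes were at -0.87 (-2.55 to 1.10), and that call ended with a pseudocount of 10 CPM.

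Klf2 and Cd69 are also quick to respond when cells are handled, so a list of 15 stress and immediate early genes was read beside them. In B cells, aged over young, 9 of the 14 list members with at least 100 UMIs were past 1.5-fold and lower. None was higher, and the median log2 ratio was -0.76. Among all genes tested there 2.53% were lower and 19.9% higher, with a median of 0.25. Dusp1 was at -1.46 and Junb at -1.35. In NK cells 3 of 11 were lower and 1 higher, with a median of -0.44. Among all genes tested in NK cells 5.33% were lower and 8.83% higher, with a median of 0.04. In naive CD4, memory CD4, naive CD8 and memory CD8 T cells the median was -0.06, -0.06, -0.04 and -0.31. In naive CD4 T cells 4 of 12 were above 0 and 8 below, with 1 past 1.5-fold in each direction. In memory CD4 T cells 5 of 10 were above 0 and 5 below, with 1 past 1.5-fold, higher. Among all genes 20.8% and 18.8% passed in either direction in naive and memory CD4 T cells. With GA the median of the list was above 0 in all 9 gates, between 0.07 in naive CD4 T cells and 0.39 in B cells. That of all genes lay between -0.06 in memory CD8 T cells and 0.13 in neutrophils. In aged-GA over aged B cells 2 of 13 passed 1.5-fold, Fos at 0.59 and Jun at 0.68, where 1.95% of all genes did in either direction, and 4 of the 13 were below 0. Dusp1 was at 0.12 and Atf3 at -0.32. Egr1, another member, was at -0.67 in memory CD8 T cells. Of 12 stress genes there with GA, 1 was past 1.5-fold and higher and 2 lower, against 1.5% and 2.98% of all genes. In naive CD4 T cells 1 of 12 was higher and 1 lower, and in memory CD4 T cells 1 of 12 was higher. In naive CD8 T cells 1 of 12 was lower. Among all genes 2.04% were higher in naive CD4 T cells, and 4.94% and 4.32% passed in either direction in memory CD4 and naive CD8 T cells. Nr4a1 is switched on in T and B cells after antigen receptor signals, as is Cd69. With GA Nr4a1 was lower in naive CD4 (-0.70), naive CD8 (-1.11) and memory CD8 T cells (-0.97). It was closer to level in memory CD4 T cells, at 69.3 CPM in aged and 63.1 with GA, and in B cells, at 63.8 and 62.1. By age Nr4a1 was higher in naive CD4 T cells, at 22.3 CPM in young and 73.2 in aged. It was also higher in naive CD8 T cells, at 17.5 and 38.9 CPM, and in B cells, at 43.2 and 63.8. With GA the median of the stress genes thus had the sign of Klf2 and Cd69 in all 9 gates. By age it had the sign of both in B cells, NK cells and nonclassical monocytes (-0.23). It also did in both CD4 T-cell gates, where it was near 0. In memory CD8 T cells it had the sign of Cd69 but not of Klf2, and in naive CD8 T cells of neither. The signs of Klf2 in both CD8 gates and of Cd69 in naive CD8 T cells depended on the centring. Neutrophils had 13 of 13 stress genes above 0 with GA, and 3 were past 1.5-fold, higher along with 5.98% of all genes. Classical monocytes had 12 of 13 above 0 and NK cells 9 of 10. The median of all genes in these gates was 0.13, 0.03 and 0.02. In naive CD4, memory CD4, naive CD8 and memory CD8 T cells 9, 7, 9 and 8 of 12 were above 0, and the other stress genes were lower. Their part in the result was not tested.

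The mixture of cells differed between the libraries, and its part in the values over all kept cells was not tested. There S1pr1 stood at 175 CPM in young, 124 in aged and 156 with GA, lower in aged than in young, although its ratio by age was above 0 in all 6 gates. S1pr5 stood at 3.36 CPM in young, 14.2 in aged and 8.45 with GA. In young mice NK cells held 54.3% of all S1pr5 UMIs with 2.23% of all UMIs, and nonclassical monocytes 15.4% with 0.449%. In aged mice nonclassical monocytes held 30.1% with 3.26% of all UMIs, and NK cells 13.7%. In aged-GA mice nonclassical monocytes held 19.2%, NK cells 17.2% and memory CD8 T cells 16.5%, the last with 8.83% of all UMIs. The shares of S1pr1 in these gates changed along with their shares of all UMIs. Naive CD4 and naive CD8 T cells held 15.6% and 21.6% of S1pr1 in young mice, with 9.38% and 17.3% of all UMIs. In aged mice they held 5.71% and 4.52%, with 1.86% and 2.39% of all UMIs. B cells held 9.09% with 18.4% in young and 34.8% with 28.6% in aged mice. Much of the rest lay in cells in no gate.

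**Figure D3:**
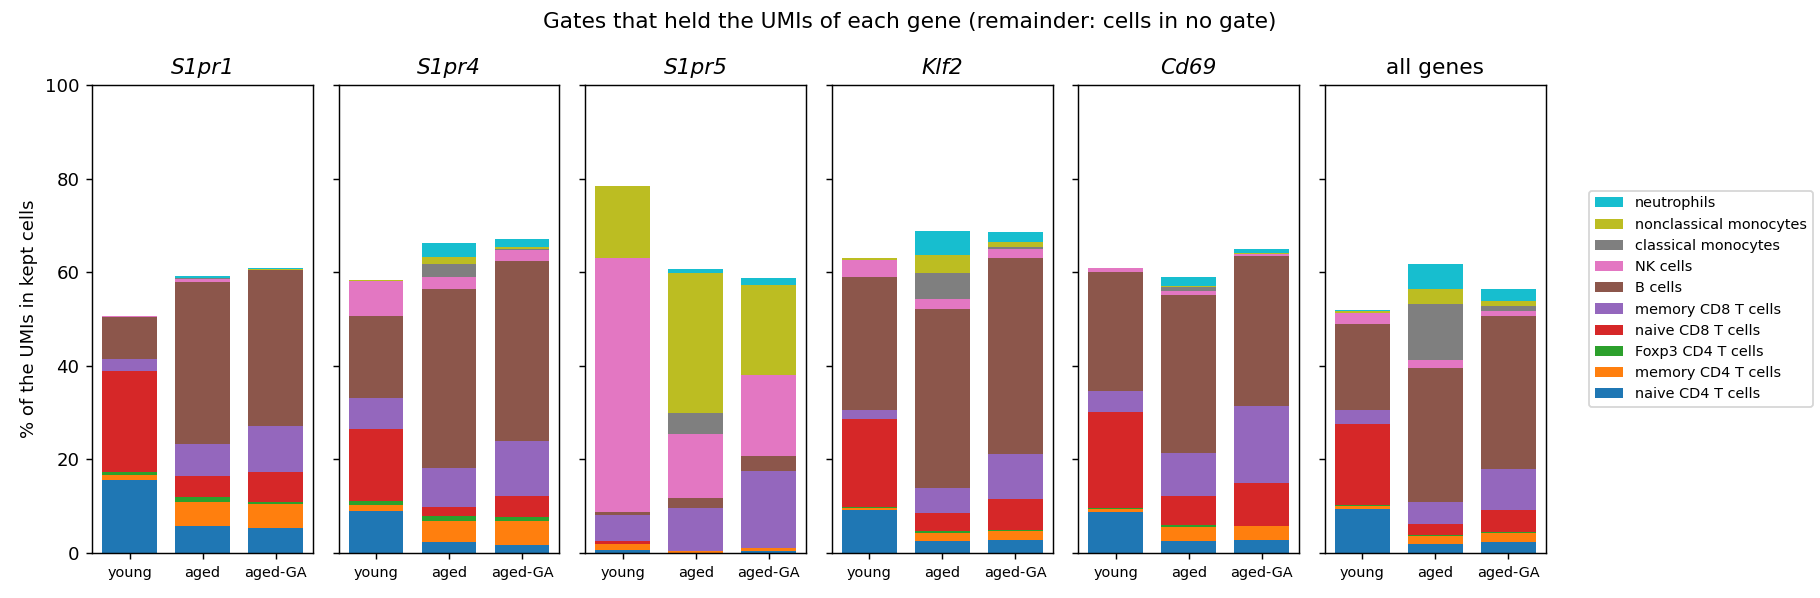
Share of the UMIs of each gene, and of all genes, that fell in each gate (vertical axis, percent of the UMIs in kept cells) in the 3 libraries (horizontal axis). The space above each bar is cells in no gate, and the gate with the largest share of S1pr5 UMIs is NK cells in young and nonclassical monocytes in aged mice.

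Since CD69 protein antagonises S1P1, cells with and without a Cd69 UMI were compared within gates, each cell at 1000 UMIs. Of 14 pairs of gate and library with enough UMIs, S1pr1 was higher in cells with Cd69 in 7 and lower in 7, with a median log2 ratio of 0.005 and no interval that left 0. In aged B cells S1pr1 was at 156 CPM with Cd69 and 153 without, a log2 ratio of 0.02 (-0.30 to 0.33). Klf2 was higher in cells with Cd69 in 12 of 14 pairs, and 4 intervals lay above 0. In B cells the Klf2 values were 0.11 (0.04 to 0.19) in young, 0.21 (0.12 to 0.30) in aged and 0.12 (0.06 to 0.18) in aged-GA. S1pr4 was lower in cells with Cd69 in 11 of 11 pairs, with a median of -0.31, and every interval held 0. The pairs share libraries and are not replicates, and a UMI count of 0 in a cell does not show that the cell lacks the transcript.

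**Figure D4:**
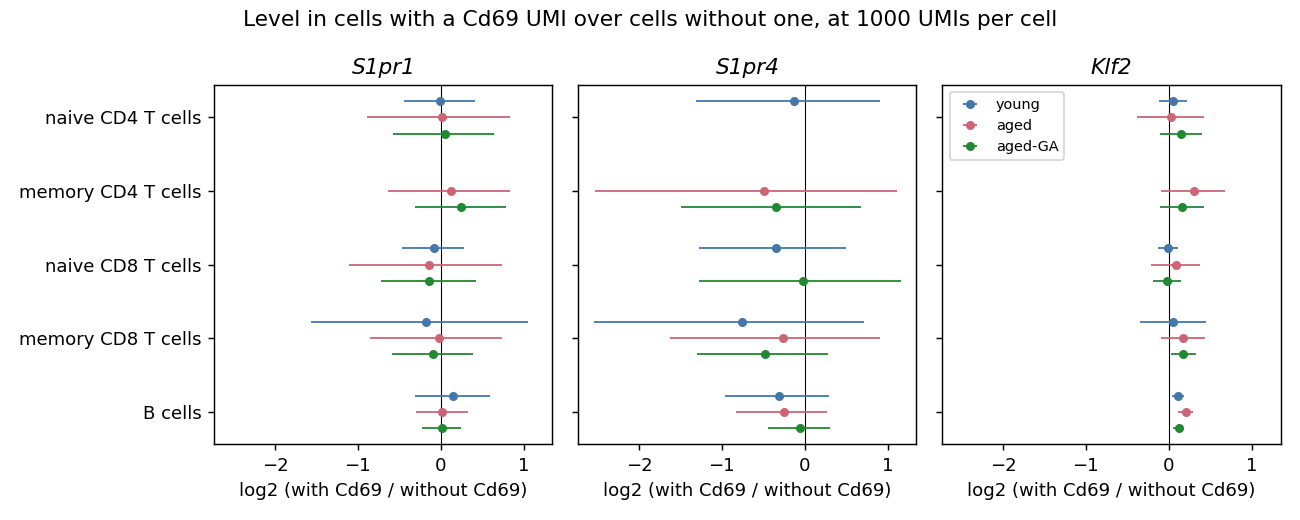
Log2 ratio of the level in cells with a Cd69 UMI over cells without one (horizontal axis), by gate (vertical axis) and library, for S1pr1, S1pr4 and Klf2. Each cell stands at 1000 UMIs, bars are 95% counting intervals, and the S1pr1 points lie on both sides of 0 while the Klf2 points of B cells lie above it.

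The enzymes and carriers that set S1P itself were thinly measured in blood cells. Of 9 genes of S1P synthesis, export and breakdown, 5 had at least 100 UMIs in B cells in each comparison and at most 3 had in any other gate. Spns2, an S1P exporter, was found in B cells at 9.48, 17.9 and 15.6 CPM in young, aged and aged-GA and at 0 in NK cells. Its ratio by age in B cells was 0.85 (0.56 to 1.29), and that of Sgpl1, the lyase that breaks S1P down, 0.63 (0.39 to 0.94). Both were past 1.5-fold and higher, as were 19.9% of all genes, and the median of the 5 was 0.40 against 0.25 for all genes. With GA none of the 5 passed. Sgpp1, an S1P phosphatase, was the other call, at -0.63 in naive CD4 T cells by age, where 20.8% of all genes passed in either direction. Mfsd2b, the exporter of red cells and platelets, was at 1.12, 0.566 and 0.509 CPM in erythroid cells. Of the other S1P receptors, S1pr2 was at 10.0 CPM in aged classical monocytes and 10.9 in aged-GA NK cells and S1pr3 at 1.01 in aged-GA B cells, and neither had 100 UMIs in any gate.

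Of 11 receptor signaling genes, with ratios for 10 or 11 in each gate, 3 were higher and 1 lower by age in B cells, 2 higher and none lower in memory CD8 T cells, and 1 higher and 2 lower in naive CD4 T cells. Among all genes 19.9% were higher and 2.53% lower in B cells, 25.2% higher in memory CD8 T cells and 20.8% past 1.5-fold in naive CD4 T cells. The median of the list was 0.04, 0.09 and 0.04 there, below that of all genes in each. Grk2, the kinase that desensitises S1P1, was at 1.06 in memory CD8 T cells, 0.79 in B cells and 0.67 in naive CD8 T cells, all past 1.5-fold. Dock2, which drives lymphocyte migration, was at 0.86 in memory CD8 T cells, 0.82 in naive CD4 T cells and 0.70 in B cells. Rgs1, which damps chemokine and S1P signals, was lower by age in naive CD4 T cells (-1.08), memory CD4 T cells (-0.92) and naive CD8 T cells (-0.77) and higher in nonclassical monocytes (0.61). In memory CD4 and naive CD8 T cells 18.8% and 20.3% of all genes passed in either direction. With GA only Rgs1 and Gna12 passed, both upward and in classical monocytes, at 0.97 and 0.66. They were 2 of 11 there, where 9.3% of all genes passed in either direction.

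Among 8 transcription factors of the pathway, 3 of 5 measured in memory CD8 T cells were past 1.5-fold and higher by age, as were 25.2% of all genes there. These were Zeb2, at 1.85, Klf3, at 0.77, and Klf6, at 0.69, and the median of the 5 was 0.69 against 0.29 for all genes. Foxo1, which acts upstream of Klf2 in T cells, was at 0.41 in naive CD4 and 0.29 in naive CD8 T cells. The other calls by age were all higher. Zeb2 was 1 of 7 in NK cells (0.86), where 8.83% of all genes were higher. Klf3 was 1 of 4 in naive CD8 T cells (0.62) and Klf6 1 of 4 in memory CD4 T cells (0.77). In these 2 gates 20.3% and 18.8% of all genes passed in either direction, so the calls there were near the background. With GA Zeb2, 1 of 7 in memory CD8 T cells, was lower, at -0.87 (-1.16 to -0.62), along with 2.98% of all genes. Klf6, 1 of 4 in neutrophils, was higher, at 0.59, along with 5.98%, and no other passed.

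Of 12 homing receptors, 5 of 10 measured in memory CD8 T cells were past 1.5-fold and higher by age, namely the integrin chains Itgal (1.01), Itga4 (0.93) and Itgb1 (1.02), the chemokine receptor Cxcr3 (0.76) and the oxysterol receptor Gpr183 (0.65). The median of the 10 was 0.60 against 0.29 for all genes, of which 25.2% were higher. Itgb1, Cxcr3 and Ccr7 took part in the gating of T cells, so their T-cell values follow partly from the rule. B cells had 2 of 10 higher, Itgal (0.72) and Itgb1 (1.34), with a median of 0.31, near the 19.9% of all genes. Naive CD4 T cells had 3 of 9 higher, with all 9 above 0 and a median of 0.35 against 0.19 for all genes. Naive CD8 T cells had 1 of 10 higher, and memory CD4 T cells 1 of 10 higher and 1 lower. Among all genes 20.8%, 20.3% and 18.8% passed in either direction in naive CD4, naive CD8 and memory CD4 T cells. With GA the calls included Itga4, 1 of 10 in memory CD8 T cells, lower (-0.89) along with 2.98% of all genes. Cxcr3 was 1 of 12 in B cells, higher (0.76), where 1.95% of all genes passed in either direction. Gpr183 was 1 of 8 in classical monocytes, higher (0.85), where 9.3% passed in either direction. Ccr7, the chemokine receptor for entry into lymph nodes, stood at 433, 299.6 and 317 CPM in B cells, which were not gated on it, a log2 ratio by age of -0.53.

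The pattern of each member over the gates was set against 5044 other genes in 23 sums of gate and library of at least 50 cells. Dtx1, a regulator of Notch signaling, was most like S1pr1, with a Pearson correlation of 0.97, and it was also the third gene for Cd69, at 0.95. Zeb1 was most like Cd69 (0.96). Pdgfb and Adrb1, which encodes a beta adrenergic receptor, were most like S1pr5 (0.95 and 0.93), Ndfip1 and Stat4 most like S1pr4 (0.90 and 0.89), and Zfp869 and Mdm4 most like Klf2 (0.84 and 0.84). Between members the correlation was 0.92 for S1pr1 with Cd69 and -0.53 for S1pr1 with S1pr5. The sums share 3 libraries and several are of the same cell type, so these values describe likeness over cell types.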

How the data were processed

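PBMCs of 3 groups of mice were measured by 10x Genomics 3′ single-cell RNA sequencing, 1 library per group. The authors ran Cell Ranger (5.0.0 in the matrix headers, mm10 in the submitters' processing notes) and deposited raw UMI counts per gene and barcode, without normalization. The methods of the paper name another version of Cell Ranger, and the cell numbers it reports differ from those kept here. With the limits of the study, cells with under 200 genes, over 90% of the highest gene number or over 7.5% mitochondrial UMIs were dropped, the highest number being taken here per library. Libraries shared between 50 and 62 barcodes.

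A cell entered a lineage with at least 3 UMIs of that lineage's markers, making up at least 80% of all lineage marker UMIs (T: Cd3d, Cd3e, Cd3g, Trac; B: Cd79a, Cd79b, Ms4a1; NK: Ncr1, Klrb1c, Klre1, Klra8, Klra4; monocytes: Csf1r, Ms4a6c, Clec4a1, Clec4a3; neutrophils: Csf3r, Cxcr2, Mmp9, Retnlg, Il1r2; erythroid: Alas2, Slc4a1; platelets: Pf4, Ppbp, Itga2b). T cells had a Cd4 UMI or a Cd8a or Cd8b1 UMI, not both. CD4 T cells with a Foxp3 UMI were kept apart. Naive and memory cells had at least 2 UMIs of, and at least 2 times as many from, Lef1, Ccr7, Igfbp4, Dapl1 and Actn1 or Ccl5, Nkg7, Itgb1, S100a4, Cxcr3, Il2rb and Maf. Monocytes were split likewise by Ly6c2, Ccr2 and F13a1 against Ace, Treml4 and Cd300e. Doublets were not removed. A marker of the B-cell list, one of the erythroid list and a homing receptor were used but are not reported here.

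UMIs were summed per gate and scaled to CPM. Log2 ratios used a pseudocount of 1 CPM and were given for gates of at least 30 cells and more than 3 UMIs in both libraries. Intervals are 95% exact Poisson for levels, exact conditional binomial for ratios and Clopper-Pearson for shares. Ratio intervals hold no pseudocount. Background shares cover genes of 100 or more UMIs in the summed pair of libraries. Shares of cells with a UMI are expected values over all ways of thinning a cell to 1000 UMIs, which left out 8, 39 and 24 gated cells with fewer. Likeness used genes of at least 50 CPM in some sum. Ratios were checked on simulated counts. Python 3.11.15, numpy 2.4.6, scipy 1.17.1, pandas 2.3.3 and scanpy 1.11.5 (Scrublet, for an alternative only) were used. Genes named are the members, those of the fixed lists and the genes most like each member. The members and lists were chosen with earlier results of these data known.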

Additional observations from a re-analysis of the deposited data

Results flagged for a closer look

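S1pr5 took opposite directions with GA in 2 gates. The log2 ratio of aged-GA over aged was -0.785 in memory CD8 T cells, from 70 aged and 106 aged-GA UMIs, and 0.905 in neutrophils, from 6 and 9 UMIs. The interval in neutrophils, -0.46 to 2.97, holds 0 and that in memory CD8 T cells, -1.27 to -0.37, does not. With a pseudocount of 10 CPM neither was past 1.5-fold. Each side is 1 library and the difference between the gates was not tested.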

How the results depend on the processing

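Under 10 alternatives no member past 1.5-fold took the other direction. Of the 17 calls, 17 were kept with at least 500 genes per cell, without the mitochondrial limit, with a naive gate lacking Ccr7 and Igfbp4, with haemoglobin, mitochondrial and ribosomal protein UMIs out of the denominator, with the mean of each cell's CPM and with no pseudocount. A pseudocount of 10 CPM kept 13 and ended the calls with GA of S1pr4 in NK cells (0.57), S1pr5 in memory CD8 T cells (-0.56) and S1pr5 in neutrophils (0.29) and the call by age of Cd69 in nonclassical monocytes (-0.53). Subtracting the median of all genes kept 16 and ended the call by age of S1pr1 in B cells (0.54), and it added 4, by age S1pr4 (-0.75) and Cd69 (-0.81) in memory CD8 T cells and Cd69 in naive CD4 T cells (-0.63) and with GA Cd69 in B cells (0.60). Stricter lineage gates kept 15 of 16, and S1pr4 in NK cells with GA (0.58) was the one lost. Calls were also added with GA for S1pr4 in naive CD4 (-0.81) and naive CD8 T cells (0.65) by the naive gate lacking Ccr7 and Igfbp4, in naive CD8 T cells (0.60) and for Klf2 in classical monocytes (0.63) by the mean of each cell's CPM, for S1pr4 in classical monocytes (0.87) by stricter gates and for S1pr1 in nonclassical monocytes (0.60) with no pseudocount. By age the reduced denominator added S1pr4 (-0.67) and Cd69 (-0.73) in memory CD8 T cells. The automatic Scrublet threshold called no cell in the aged-GA library, so leaving out called doublets was not run. Leaving out the 5% of cells with the highest score, chosen after seeing the data as was subtracting the median, kept 17 and added S1pr1 in neutrophils with GA (0.62).

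Subtracting the median moved 15 of 70 ratios beyond their intervals. They included S1pr1 in naive CD4 T cells by age (0.20), Klf2 there (-0.28, and -0.18 with the reduced denominator) and Cd69 in B cells by age (-1.51). The number of genes past 1.5-fold moved most. A minimum of 10 UMIs gave 3166 by age and 1665 with GA in naive CD4 T cells, 3082 and 1544 in naive CD8 T cells, 2455 and 1694 in NK cells, and 394 with GA in B cells, against 997 and 118, 1242 and 197, 409 and 120, and 190 with a minimum of 100. A pseudocount of 10 CPM gave 619 and 73 in naive CD4 T cells, 651 and 65 in naive CD8 T cells, and 770 and 48 in B cells, where 2000 and 190 passed with 1 CPM, and no pseudocount gave 305 with GA in B cells. More low genes are tested under the first and their ratios shrink under the second. Shares of cells with a UMI rest on the depth they are read at, and are printed thinned and unthinned.

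Each group is 1 library, so leaving out a replicate was not run. No paired analysis was possible because each group has 1 sample and the result comes from no test. Depth limits S1pr1 in NK cells, S1pr5 outside NK cells and nonclassical monocytes, and S1pr1, S1pr4 and Cd69 in monocytes.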

Other observations

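Foxp3 CD4 T cells, the regulatory T cells, were too few for a ratio. S1pr4 stood at 176, 155 and 216 CPM in these cells of young, aged and aged-GA, from 21, 25 and 38 UMIs, with intervals of 109 to 269, 100.2 to 229 and 153 to 297 CPM, which lie above the naive CD4 level in every library. S1pr1 stood at 377, 390.3 and 279 CPM, with intervals that overlap those of naive CD4 T cells in every library. In aged-GA they were 207 to 369 CPM in Foxp3 and 350 to 409 in naive CD4 T cells. Klf2 stood at 1106, 874 and 1453 CPM, with aged-GA the highest. Cd69 stood at 268, 254 and 205 CPM, with aged-GA the lowest, unlike in the gates with a ratio, and with intervals that overlap one another.

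S1pr2, the S1P receptor that holds cells in place rather than drawing them to S1P, was found in classical monocytes at 10.0 CPM in aged and 11.9 in aged-GA, from 65 and 10 UMIs. In nonclassical monocytes it stood at 6.84 and 2.60 CPM. Spns2 was close to a B-cell gene in these libraries, with 275 of its 344 UMIs in kept aged cells and 386 of 468 in kept aged-GA cells in the B-cell gate.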
